A study of Mus musculus with 36 samples.

Results

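The nuclear genes of the mitochondrial respiratory chain and of ATP synthase were described in RNA of the mouse dorsal vagal complex. Genes were taken by symbol: those beginning with Nduf followed by a, b, c, s or v, Sdha to Sdhd, and those beginning with Uqcr, with Cox and a digit from 4 to 8, or with Atp5. The pattern matched 92 symbols of the deposited table, and 2 were left out because their suffix marks a pseudogene or related sequence. The remaining 90 genes, of 24344 in the table, were 36 genes of complex I, 8 of its assembly, 4 of complex II, 8 of complex III, 18 of complex IV and 16 of ATP synthase. Ndufa4 and Ndufa4l2 carry a complex I name but were counted with complex IV, of which Ndufa4 is a subunit. Atp5sl carries an ATP synthase name but was counted with the assembly genes, because its product takes part in building the membrane arm of complex I. Cox7b2 and Cox8c were not analysed here.

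The respiratory chain passes electrons from NADH and succinate to oxygen through complexes I to IV of the inner mitochondrial membrane and pumps protons on the way. ATP synthase lets the protons flow back and makes ATP. Most subunits are encoded in the nucleus, a few in the mitochondrial genome, and neurons depend on this pathway for most of their ATP. Transcription factors of the nucleus, among them NRF1 and the ETS factor GABP, are known activators of many of the nuclear genes.

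The dorsal vagal complex of the hindbrain holds the solitary tract nucleus and the motor nucleus from which vagal fibres leave. It was sampled at week 15 from wild-type female and male mice of 3 inbred strains: C57BL/6J, the laboratory standard, CAST/EiJ, of wild origin, and NZO/HlLtJ, which tends to obesity and diabetes. From week 6 they were fed control food with 10% fat or food rich in fat and sugar with 44% fat (HFHS), both containing fiber. Strain, diet and sex gave 12 groups with 3 libraries in each, 36 in all. The labels do not say whether the libraries of a group came from separate animals, so p-values measure the spread between these libraries. Library totals ran from 22.03 to 49.61 M expected counts. Levels are given as CPM, counts scaled to a library total of 1 M, with the standard deviation (SD) over libraries, and differences on the log2 scale with a standard error (SE). A gene is called when its Benjamini-Hochberg adjusted p in edgeR's quasi-likelihood test, adjusted over all 20108 tested genes, is under 0.05.

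Of 8 listed markers of the region's noradrenergic and cholinergic neurons, 7 exceeded 1 CPM in 36 of 36 libraries, among them Th, Dbh and Chat, and 1 did so in 9 of 36 (median 0.787 CPM). Hox genes of the hindbrain were nearly absent from 3 libraries, CAST/EiJ male control 1 and 3 and NZO/HlLtJ male control 3, and diet values are also given with these taken away. Pituitary genes (5 of 6 listed are in the table) summed to 17460 CPM in NZO/HlLtJ male control 1 and to at most 23.94 CPM in the other libraries. In bulk tissue, fewer cells of a type and less RNA per cell cannot be told apart.

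Together the 90 genes took between 8155 and 10330 CPM of a library, with a median of 9282 CPM, or 0.928% of the counts. Divided by transcript length, the highest level was that of Atp5b, the catalytic beta subunit of ATP synthase, with 609.5 CPM per kb. Cox4i1, the common isoform of a regulatory subunit of complex IV, followed with 448.9 CPM per kb. By group, the median gene had 131 CPM per kb in ATP synthase, 140.6 in complex IV, 99.1 in complex III, 65.8 in complex II and 65.3 in complex I. The 8 assembly genes, whose products help to build complex I but do not stay in it, had a median of 13.3 CPM per kb and ran from 5.18 for Ndufaf6 to 21.9 for Ndufaf5.

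Within complexes the genes spread widely per kb of transcript. In complex I the range was from 12.6 CPM per kb for the accessory subunit gene Ndufb2 to 191.1 for the accessory subunit gene Ndufb8. In complex II, Sdha, the flavoprotein that oxidises succinate, had 173.1 CPM per kb and the membrane anchor gene Sdhc 27.4. In complex III, Uqcrh, the hinge protein, had 233.2 and Uqcrq 36.3 CPM per kb. In ATP synthase the lowest was Atp5s, a coupling factor, with 8.04 CPM per kb. Levels per kb depend on the transcript model taken from gencode vM21: that of Atp5g1, a subunit c gene, is 4715 bp long and that of its paralog Atp5g3 723 bp.

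**Figure D1:**
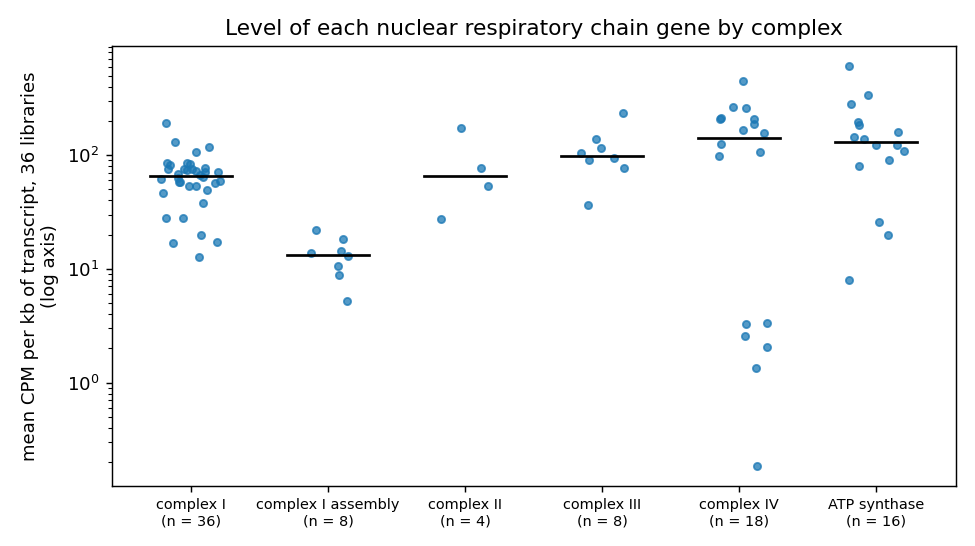
Level of each of the 90 genes, as the mean of 36 libraries in CPM per kb of transcript (log axis), with genes as points, complexes in columns and a bar at the median gene. The 6 low points of complex IV are its tissue isoforms, and the assembly genes lie below most subunits.

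Complex IV has subunits with alternative isoforms for particular tissues, and the common isoform led in each pair. Cox4i1 had 343.4 ± 35.6 CPM and Cox4i2, an isoform best known from lung, 0.990 ± 0.299 CPM (SD, n = 36 in this paragraph). Cox6a1 had 149.4 ± 24.4 CPM, whereas Cox6a2, an isoform of heart and skeletal muscle, had 0.126 ± 0.0812 CPM and was the 1 gene that did not pass the filter on low counts. Cox6b1 had 129.5 ± 13.6 CPM and the testis isoform Cox6b2 1.92 ± 0.616 CPM. Cox7a2 had 103.0 ± 10.3 CPM and Cox7a2l, a related protein that joins complexes III and IV in supercomplexes, 105.3 ± 11.7 CPM, while the muscle isoform Cox7a1 had 1.32 ± 0.417 CPM. Cox8a had 146.9 ± 14.6 CPM and Cox8b, of muscle and brown fat, 0.746 ± 0.435 CPM. Ndufa4 had 129.6 ± 11.8 CPM and its hypoxia-induced relative Ndufa4l2 2.41 ± 0.482 CPM. In none of these pairs did the libraries of the common and the tissue isoform come near each other. The transcript lengths of each pair are of like size, from 360 to 1076 bp over these genes.

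Promoter sequence, which the choice of genes did not use, was searched for 2 motifs. RefSeq promoters of GRCm38.p6, 300 bp each from upstream of the start to just inside the gene, matched 75 of the 90 genes. The NRF1 motif, GCGCA followed by any base and GCGC, was found on either strand in 19 of the 75 genes (25.3%), against 5.19% of 27025 genes with a promoter. The ETS motif CCGGAAG, to which GABP binds, was found in 17 genes (22.7%), against 9.93% of all genes. Both were present in 4 genes (5.33%), against 1.12% of all. The 27025 genes were not limited to protein-coding genes or to genes with reads in these libraries, whereas the members are protein-coding. A match of letters is a description and does not show that a factor was bound. The promoters of Cox6a1 and Ndufs5 are shown because both genes differ between strains in the results that follow. Capitals mark the NRF1 and ETS motifs, read 5′ to 3′ on the strand of the gene. The Cox6a1 promoter (chr5:115348909-115349208, minus strand, GRCm38.p6) holds 2 NRF1 motifs and 1 ETS motif, and the Ndufs5 promoter (chr4:123718137-123718436, minus strand, GRCm38.p6) holds 1 NRF1 motif.
Cox6a1: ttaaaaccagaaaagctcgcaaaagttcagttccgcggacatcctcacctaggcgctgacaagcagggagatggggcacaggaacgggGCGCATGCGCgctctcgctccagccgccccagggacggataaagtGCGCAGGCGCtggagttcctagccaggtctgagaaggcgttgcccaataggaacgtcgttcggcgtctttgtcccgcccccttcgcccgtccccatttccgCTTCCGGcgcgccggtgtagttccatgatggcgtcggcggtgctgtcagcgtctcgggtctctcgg
Ndufs5: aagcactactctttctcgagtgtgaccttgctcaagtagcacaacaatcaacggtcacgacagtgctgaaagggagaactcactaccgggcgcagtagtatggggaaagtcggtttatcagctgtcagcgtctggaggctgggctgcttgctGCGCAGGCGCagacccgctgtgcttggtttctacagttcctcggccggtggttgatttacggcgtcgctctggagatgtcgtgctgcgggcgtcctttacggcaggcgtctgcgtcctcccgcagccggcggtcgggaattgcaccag

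Within each strain, HFHS was set against control to ask whether the food changed these genes. No respiratory chain gene was called in any strain. In C57BL/6J edgeR called 0 of 89 tested members, 0 of them at an unadjusted p under 0.05, and DESeq2 and limma also called 0. Among all tested genes edgeR called 0, a share of 0%. In CAST/EiJ edgeR called 0 members against 0.269% of all genes, with 5 members at an unadjusted p under 0.05, and in NZO/HlLtJ it called 0 members against 0.0497% of all genes, with 3 at an unadjusted p under 0.05. In CAST/EiJ DESeq2 called 2 members, Ndufaf1 and Ndufaf2, and limma 0. The shares of all genes given here are those of edgeR, so the 2 calls of DESeq2 stand without such a share. In NZO/HlLtJ both called 0.

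Values leaned upward without passing. Median log2 differences of the members, HFHS minus control, were 0.04 in C57BL/6J, 0.07 in CAST/EiJ and 0.02 in NZO/HlLtJ, where the medians of all tested genes were 0.002, -0.001 and 0. Values above 0 were found for 79, 77 and 65 of the 89 members. In C57BL/6J 10261 of all 20108 tested genes had values above 0. Among the quartile of other protein-coding genes with the shortest transcripts, 2594 of 3989 did so there. The members moved together between libraries, as described below, so such counts are not of independent genes. The score of a group of genes is the mean log2 CPM of its tested members in a library. The score of all members ran from 5.68 to 5.93 (median 5.80) in the C57BL/6J controls and from 5.77 to 6.00 (median 5.85) on HFHS. In CAST/EiJ it ran from 5.68 to 5.90 (median 5.75) on control and from 5.76 to 5.96 (median 5.80) on HFHS. In NZO/HlLtJ it ran from 5.60 to 5.97 (median 5.85) on control and from 5.74 to 5.98 (median 5.83) on HFHS. The diets overlapped in every strain, and the median differences were smaller than the SD of 0.11 of the score within the groups of 3.

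**Figure D2:**
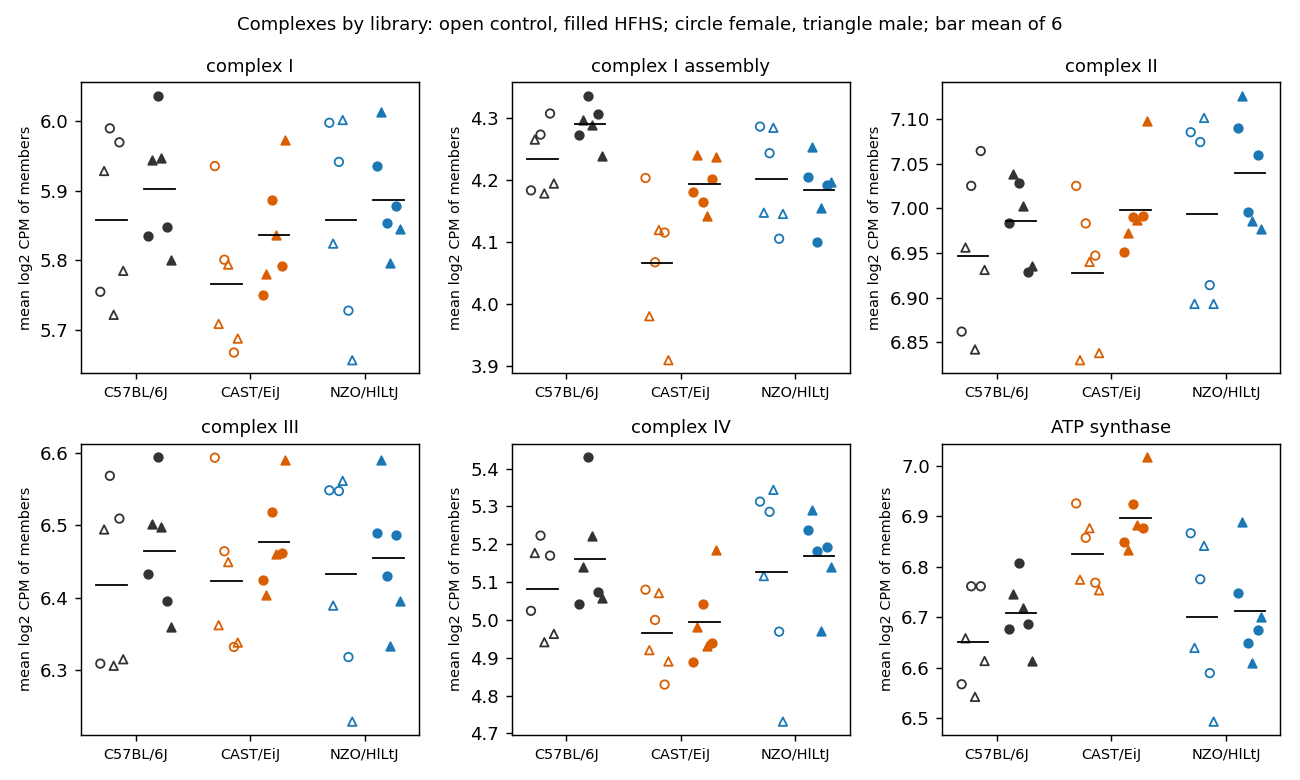
Score of each complex (mean log2 CPM of its tested members) in every library, by strain, with control as open and HFHS as filled points, females as circles, males as triangles and a bar at the mean of 6 libraries. Diets overlap in each panel and strain; the CAST/EiJ controls of the assembly genes and the raised CAST/EiJ values of ATP synthase, which were not seen without Atp5g2, stand out.

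By complex, median diet differences in C57BL/6J lay between 0.03 for complex III and 0.06 for complex IV. In CAST/EiJ they lay between 0.06 for complex IV and 0.13 for the assembly genes, and in NZO/HlLtJ between -0.01 for the assembly genes and 0.03 for complex II. All 16 ATP synthase genes had values above 0 in C57BL/6J and in CAST/EiJ, and 12 of 16 in NZO/HlLtJ. The 7 core subunits of complex I, which carry out the electron transfer, had a median of 0.03 in C57BL/6J, 0.08 in CAST/EiJ and 0.07 in NZO/HlLtJ. None of these counts is of called genes, and genes that move together between libraries are not independent.

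The smallest p-values in CAST/EiJ belonged to complex I assembly. Ndufaf2, which acts late in the assembly, ran from 6.53 to 10.47 CPM (median 8.39) in the 6 CAST/EiJ control libraries and from 9.87 to 12.1 CPM (median 10.96) on HFHS, and the diets overlapped. Its log2 difference was 0.38 (SE 0.11, edgeR adjusted p = 0.0832). Ndufaf2 shares 64.1% of its 50-base sequences with B230220B15Rik, a long noncoding RNA gene, so its level is uncertain. Ndufaf1, a factor of the membrane arm, ran from 15.9 to 20.2 CPM (median 18.9) on control and from 19.3 to 24.8 CPM (median 21.3) on HFHS. Its log2 difference was 0.21 (SE 0.07, edgeR adjusted p = 0.103). For Ndufaf1, too, the lowest HFHS library lay within the range of the controls. Ndufa9, an accessory subunit next to the quinone site, had a value of 0.14 (SE 0.06, edgeR adjusted p = 0.161).

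In CAST/EiJ the diets also differed in marker genes. The sum of the 18 Hox genes in the table, of 19 listed, ran from 0.413 to 239.7 CPM in CAST/EiJ controls and from 229.0 to 326.6 CPM on HFHS. On control 5 of the 18 were above 0 in each library, and on HFHS 18 of 18. Cerebellar neuron genes (12 of 12 in the table, none at 0) summed to between 185.0 and 3012 CPM on control and between 212.0 and 1064 CPM on HFHS, and myelin genes (10 of 10, none at 0) to between 6374 and 11830 and between 10920 and 12520 CPM. Red blood cell genes (6 of 6, none at 0) summed to between 654.8 and 2540 CPM on control and between 209.9 and 384.7 CPM on HFHS. The median difference of the members in CAST/EiJ was -0.01 in a fit that included the Hox score, and 0.04 when the 3 libraries nearly free of Hox reads were taken away. In NZO/HlLtJ these medians were -0.01 and -0.02. The Hox sums of the diets overlapped little in CAST/EiJ, so the fit with the Hox score cannot separate diet from Hox level there. The part of the Hox genes and of the other marker lists in the diet values was not tested. Without CAST/EiJ male control 2, edgeR called 2 members in CAST/EiJ, where 9.41% of all genes were then called: Ndufaf2 at 0.48 (edgeR adjusted p = 0.0066) and Ndufaf1 at 0.25 (edgeR adjusted p = 0.0234), and the 2 male controls that remained were those nearly free of Hox reads. Without NZO/HlLtJ male control 3 it called Ndufaf2 (edgeR adjusted p = 0.0422).

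In NZO/HlLtJ the smallest p-values belonged to genes with values in both directions. Ndufaf4, a factor of early complex I assembly, ran from 31.5 to 40.2 CPM (median 33.0) on control and from 26.1 to 32.3 CPM (median 30.3) on HFHS, with a log2 difference of -0.20 (SE 0.07, edgeR adjusted p = 0.329). Ndufa4l2 ran from 1.86 to 2.97 CPM (median 2.07) and from 2.46 to 3.56 CPM (median 2.91), with a value of 0.38 (SE 0.15, edgeR adjusted p = 0.369). Ndufs1, the largest core subunit of complex I and a holder of iron-sulfur clusters, ran from 143.1 to 192.1 CPM (median 164.5) and from 171.4 to 188.3 CPM (median 184.3), with a value of 0.12 (SE 0.05, edgeR adjusted p = 0.378). For each of these genes the diets overlapped. Without NZO/HlLtJ male control 2, Ndufs1 was called at 0.18 (edgeR adjusted p = 0.0457), and without male control 1, the library with pituitary reads and the lowest Ndufs1 level, its value was 0.07 and not called. In C57BL/6J the smallest p-values were those of Atp5j2, subunit f of ATP synthase (0.12, SE 0.06), Atp5s (0.13, SE 0.08) and Ndufaf6 (0.18, SE 0.11), all at an edgeR adjusted p of 1.

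The interaction of strain and diet was tested to ask whether the diet difference depended on the strain. EdgeR called 0 of 89 members, with 4 at an unadjusted p under 0.05, against 0% of all genes (1726 at an unadjusted p under 0.05). DESeq2 and limma called 0 members. The smallest p was that of Ndufaf4 (edgeR adjusted p = 0.453), whose diet values were 0.06 in C57BL/6J, 0.14 in CAST/EiJ and -0.20 in NZO/HlLtJ. Ndufaf1 (edgeR adjusted p = 0.56) had -0.02, 0.21 and -0.004, and Ndufa4l2 (edgeR adjusted p = 0.561) -0.04, -0.18 and 0.38.

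Sexes were compared over strains and diets. EdgeR called 0 of 89 members, with 3 at an unadjusted p under 0.05, where 0.0796% of all genes were called, and DESeq2 and limma called 0 members. The median of the members was -0.04 (male minus female), with 81 of 89 values below 0, and the median of all genes was 0.001. These 81 values are not independent, because the members moved together between libraries. With the 3 libraries nearly free of Hox reads taken away, all of them from males, it was -0.01. Atp5sl had the smallest p: its libraries ran from 20.9 to 40.4 CPM (median 34.8) in 18 male and from 20.6 to 41.8 CPM (median 36.7) in 18 female libraries, with a log2 difference of -0.08 (SE 0.03, edgeR adjusted p = 0.953). Both sexes covered the same range, from the low CAST/EiJ libraries to the high libraries of the other strains. Uqcrfs1, the Rieske iron-sulfur protein of complex III, had -0.07 (SE 0.03, edgeR adjusted p = 0.975) and Sdhc -0.06 (SE 0.03, edgeR adjusted p = 0.977).

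Strains differed in many of the genes, as they did in the rest of the transcriptome. NZO/HlLtJ and C57BL/6J differed least: 13 of 89 members passed (14.6%), 5 of them higher in NZO/HlLtJ and 8 lower, against 23.8% of all tested genes (11.7% higher, 12.2% lower). With total counts as library sizes there were 16 calls, 10 up and 6 down, against 24.5% of all genes in that fit. CAST/EiJ and C57BL/6J differed in 43 members (48.3%), 13 higher and 30 lower in CAST/EiJ, against 52.2% of all genes (24.5% higher, 27.7% lower). With the 3 libraries nearly free of Hox reads taken away, 37 members were called, 15 higher and 22 lower, against 48.3% of all genes in that fit. NZO/HlLtJ and CAST/EiJ differed in 38 members (42.7%), 27 higher and 11 lower in NZO/HlLtJ, against 49.8% (27.2% higher, 22.6% lower). Counted over both directions, the share of members called was not above that of all genes in these 3 comparisons. The median absolute log2 difference to C57BL/6J was 0.06 for the members and 0.13 for all genes in NZO/HlLtJ, and 0.12 and 0.23 in CAST/EiJ, where all genes include many at lower levels. Myelin genes also differed between strains, summing to between 13310 and 17310 CPM in C57BL/6J, 6374 and 12520 CPM in CAST/EiJ and 9711 and 18520 CPM in NZO/HlLtJ, and their part in the calls was not tested. All strains were processed on 1 genome build, GRCm38, whose sequence is that of C57BL/6J, and the part of mapping in single genes was not tested. Of the tested members, 69 share at most 10% of their 50-base sequences with other genes, and of these 10, 32 and 26 were called in the comparisons in the order given; levels of the others are uncertain. The contrasts share libraries, so a gene that differs in CAST/EiJ appears in 2 of them.

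**Figure D3:**
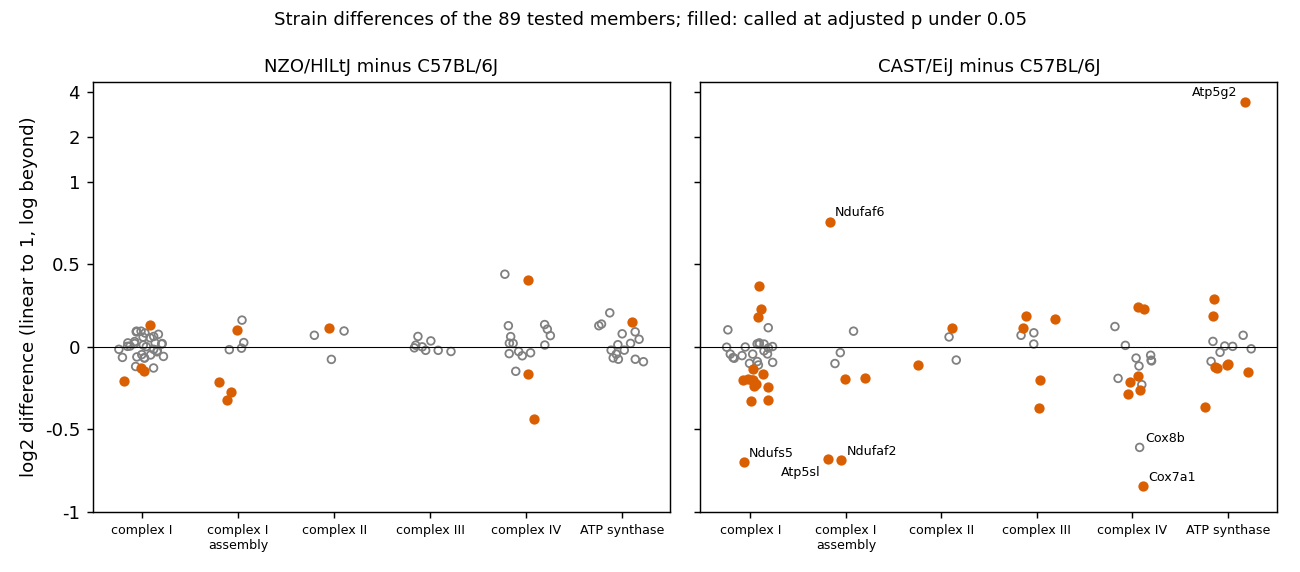
Log2 difference of each of the 89 tested genes between NZO/HlLtJ or CAST/EiJ and C57BL/6J (axis linear to 1 and logarithmic beyond), by complex, with called genes as filled and the others as open points. In NZO/HlLtJ the genes lie within 0.5 of 0; in CAST/EiJ Atp5g2 stands far above and Ndufs5, Atp5sl, Ndufaf2 and Cox7a1 lie below the rest of their groups.

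The largest difference was that of Atp5g2, one of 3 genes for subunit c, the protein that forms the rotating ring of ATP synthase. Atp5g2 (ENSMUSG00000062683; chr15:102662864-102672352, minus strand, GRCm38) ran from 42.9 to 53.7 CPM (median 47.5) in the 12 CAST/EiJ libraries, from 3.14 to 5.86 CPM (median 4.23) in C57BL/6J and from 2.96 to 8.11 CPM (median 4.92) in NZO/HlLtJ. CAST/EiJ did not overlap with the others. The difference to C57BL/6J was 3.46 (SE 0.09, edgeR adjusted p = 1.04e-23), or 11-fold, and that of NZO/HlLtJ to CAST/EiJ -3.25 (SE 0.09, edgeR adjusted p = 3.59e-23).

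Gm10175 (chr7:23946646-23947290, GRCm38), a processed copy of Atp5g2 on another chromosome, was high where Atp5g2 was low. It ran from 35.9 to 45.9 CPM in C57BL/6J and from 40.9 to 48.2 CPM in NZO/HlLtJ, and from 0 to 0.428 CPM in CAST/EiJ, where 8 of 12 libraries were at 0. The sum of both genes was 45.5 ± 3.003 CPM in C57BL/6J, 47.8 ± 2.81 CPM in CAST/EiJ and 49.4 ± 2.53 CPM in NZO/HlLtJ (SD, n = 12), and its log2 difference between CAST/EiJ and C57BL/6J was 0.07. With counts of copies elsewhere in the genome added to each member, an alternative chosen after seeing the data, Atp5g2 differed by 0.09 (edgeR adjusted p = 0.0318) between CAST/EiJ and C57BL/6J. Between NZO/HlLtJ and CAST/EiJ it then differed by 0.03 with the opposite sign (edgeR adjusted p = 0.544). The 441 bp coding sequence of Atp5g2 aligned with Gm10175 over its whole length with 0 differing positions. The first 120 bp of both, from gencode vM21 transcripts of GRCm38, are shown with the start codon in capitals to make that visible.
Atp5g2: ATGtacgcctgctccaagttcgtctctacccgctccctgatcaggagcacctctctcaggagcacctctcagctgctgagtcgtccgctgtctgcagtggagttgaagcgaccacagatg
Gm10175: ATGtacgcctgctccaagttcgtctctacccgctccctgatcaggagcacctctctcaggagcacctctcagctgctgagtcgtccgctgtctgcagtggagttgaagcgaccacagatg
A read that lies wholly within the coding sequence cannot be given to either gene by its letters. The level of Atp5g2 itself in C57BL/6J and NZO/HlLtJ is therefore uncertain.

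**Figure D4:**
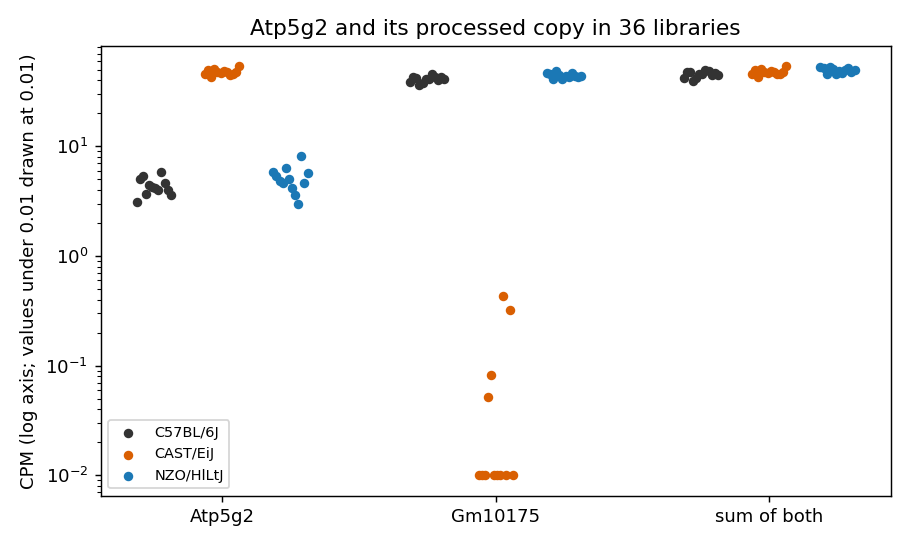
CPM (log axis, values under 0.01 drawn at 0.01) of Atp5g2, its processed copy Gm10175 and their sum in the 36 libraries, by strain. Atp5g2 is high only in CAST/EiJ and Gm10175 only in C57BL/6J and NZO/HlLtJ, and the sums of all strains lie between 39.7 and 53.7 CPM.

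The ATP synthase group stood higher in CAST/EiJ with Atp5g2 but not without it. Its score was 6.86 ± 0.08 in CAST/EiJ, 6.68 ± 0.08 in C57BL/6J and 6.71 ± 0.12 in NZO/HlLtJ (SD, n = 12). Without Atp5g2 the other 15 genes had scores of 6.95 ± 0.08, 6.98 ± 0.08 and 7 ± 0.12. Of the other genes for subunit c, Atp5g1 ran from 66.9 to 91.1 CPM (median 77.6) in CAST/EiJ, from 88.0 to 121.2 CPM (median 98.9) in C57BL/6J and from 86.4 to 114.7 CPM (median 104.1) in NZO/HlLtJ. CAST/EiJ lay below both with a small overlap, at -0.37 (SE 0.05, edgeR adjusted p = 1.11e-06) against C57BL/6J. Atp5g3 was the most abundant of the 3, with 204.0 ± 14.0 CPM over all libraries (SD, n = 36), and was called in no strain comparison.

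Among the other ATP synthase genes, 5 more were called lower in CAST/EiJ than in C57BL/6J: Atp5a1, the alpha subunit (-0.10), Atp5d of the central stalk (-0.15), Atp5h (-0.12) and Atp5j (-0.13) of the peripheral stalk and Atp5l of the membrane part (-0.11). These 5 differences stayed below 0 but were not called with the 3 libraries nearly free of Hox reads taken away (edgeR adjusted p from 0.105 to 0.19). With 1 library left out, the call of Atp5a1 was lost in 4 of 36 fits, without C57BL/6J female control 3 or male HFHS 1 or CAST/EiJ female control 2 or female HFHS 3. In such fits the call of Atp5d was lost in 23, that of Atp5h in 22, that of Atp5j in 18 and that of Atp5l in 25. Atp5s, the coupling factor, and Atp5j2 were called higher, at 0.29 (SE 0.05, edgeR adjusted p = 3.92e-05) and 0.19 (SE 0.05, edgeR adjusted p = 0.00092). Atp5j2 was also higher in NZO/HlLtJ than in C57BL/6J, at 0.15 (SE 0.05, edgeR adjusted p = 0.014). Atp5j shares 7.73% of its 50-base sequences with Gabpa, a gene for a subunit of GABP.

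In complex I, 15 of 36 genes were called between CAST/EiJ and C57BL/6J (41.7%), 3 higher and 12 lower, and 4 between NZO/HlLtJ and C57BL/6J (11.1%), 1 higher and 3 lower. Of all tested genes, 52.2% (24.5% higher, 27.7% lower) and 23.8% were called in these comparisons. Counted over both directions, the complex I shares were below these. Ndufs5 (ENSMUSG00000028648; chr4:123712710-123718202, minus strand), an accessory subunit on the side of the intermembrane space, ran from 31.9 to 42.1 CPM (median 37.2) in CAST/EiJ. It ran from 55.1 to 66.1 CPM (median 59.7) in C57BL/6J and from 49.6 to 68.4 CPM (median 60.2) in NZO/HlLtJ. CAST/EiJ lay below both other strains without overlap, at -0.70 (SE 0.05, edgeR adjusted p = 7.72e-13) against C57BL/6J, a 1.63-fold difference. Ndufs5 shares 21.7% of its 50-base sequences with the processed copy BC002163, which had at most a mean of 0.028 CPM in a strain.

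Ndufb6 (chr4:40270591-40279421, minus strand), an accessory subunit of the membrane arm, went the other way. It ran from 46.3 to 62.9 CPM (median 55.6) in CAST/EiJ and from 38.3 to 46.1 CPM (median 42.4) in C57BL/6J. The strains did not overlap, and the difference was 0.37 (SE 0.05, edgeR adjusted p = 3.57e-07). Ndufb6 shares 31.6% of its 50-base sequences with Smim27, which had between 0.268 and 1.38 CPM. Ndufs6, a zinc-binding accessory subunit, was higher in CAST/EiJ by 0.23 (SE 0.05) and Ndufab1, the mitochondrial acyl carrier protein, by 0.18 (SE 0.04). Ndufab1 shares 5.37% of its 50-base sequences with Gm4459, which was lower in CAST/EiJ (1.74 CPM) than in C57BL/6J (11.5 CPM), and the sum of both differed by -0.05. With the copy counted, the call of Ndufab1 was lost and its value was -0.03 (edgeR adjusted p = 0.64).

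The lower complex I genes of CAST/EiJ included 2 core subunits. Ndufv1, which binds NADH and the flavin, ran from 104.6 to 141.1 CPM (median 121.5) in CAST/EiJ and from 136.0 to 171.4 CPM (median 152.2) in C57BL/6J, and differed by -0.32 (SE 0.05, edgeR adjusted p = 1.14e-06). Ndufs8, an iron-sulfur protein, differed by -0.25 (SE 0.07, edgeR adjusted p = 0.00232). Of accessory subunits, Ndufa10 was lower, at -0.33 (SE 0.05), Ndufa2 at -0.24, Ndufb7 at -0.23, Ndufa6 at -0.20, Ndufb3 at -0.20, Ndufc2 at -0.20, Ndufa12 at -0.19, Ndufa7 at -0.17 and Ndufa9 at -0.14. The ranges of the strains overlapped for each of these 9 genes and for both core subunits. With the 3 libraries nearly free of Hox reads taken away, Ndufa9 (-0.09, edgeR adjusted p = 0.0799) and Ndufa7 (-0.15, edgeR adjusted p = 0.0659) did not pass, and the call of Ndufa7 was lost after any of 9 libraries was left out. Against NZO/HlLtJ, Ndufa12 differed most among them after Ndufs5, by 0.32 (SE 0.05, edgeR adjusted p = 5.31e-07, NZO/HlLtJ minus CAST/EiJ).

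In NZO/HlLtJ the called complex I genes differed by small amounts. Ndufa7 was lower than in C57BL/6J, at -0.21 (SE 0.06, edgeR adjusted p = 0.00958), Ndufa9 at -0.15 (SE 0.04, edgeR adjusted p = 0.00472) and Ndufc2 at -0.13 (SE 0.04, edgeR adjusted p = 0.014), and Ndufa12 was higher by 0.13 (SE 0.05, edgeR adjusted p = 0.0363). Ndufa7 ran from 23.5 to 32.3 CPM (median 28.7) in NZO/HlLtJ and from 27.5 to 40.8 CPM (median 31.5) in C57BL/6J. The strains overlapped for all 4 genes. With library sizes as the total count, Ndufc2 did not pass (-0.10, edgeR adjusted p = 0.062). Ndufa12 did not pass after any of 8 libraries was left out, with edgeR adjusted p from 0.0539 to 0.0732. These were NZO/HlLtJ female control 1, male control 1, male control 2, female HFHS 1 and male HFHS 1, and C57BL/6J female control 1, female HFHS 1 and female HFHS 3.

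Genes of complex I assembly had a median absolute log2 difference of 0.19 between CAST/EiJ and C57BL/6J, against 0.10 for the complex I subunits, with values in both directions. The median of all tested genes in this comparison, given above, was larger than both. The assembly genes also had lower levels per kb than the subunits (medians 13.3 and 65.3 CPM per kb). Ndufaf6 (chr4:11051045-11076205, minus strand), which acts early, ran from 5.11 to 9.40 CPM (median 7.52) in CAST/EiJ, from 3.58 to 5.41 CPM (median 4.50) in C57BL/6J and from 4.4 to 5.55 CPM (median 4.90) in NZO/HlLtJ. One CAST/EiJ library, male control 3, was low. The difference between CAST/EiJ and C57BL/6J was 0.76 (SE 0.07, edgeR adjusted p = 5.09e-10). Atp5sl (chr7:25619414-25625551, plus strand) ran from 20.6 to 26.6 CPM (median 22.2) in CAST/EiJ, from 32.6 to 40.7 CPM (median 35.8) in C57BL/6J and from 35.2 to 41.8 CPM (median 39.3) in NZO/HlLtJ. CAST/EiJ lay below both without overlap, at -0.68 (SE 0.04, edgeR adjusted p = 1.61e-15) against C57BL/6J. Ndufaf2 ran from 6.53 to 12.1 CPM (median 10.0) in CAST/EiJ and from 12.8 to 17.97 CPM (median 15.2) in C57BL/6J, also without overlap, and differed by -0.69 (SE 0.08, edgeR adjusted p = 6.91e-09). The level of Ndufaf2 is uncertain, because 64.1% of its 50-base sequences are shared with B230220B15Rik.

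In NZO/HlLtJ 4 of the 8 assembly genes were called against C57BL/6J, where 23.8% of all tested genes were called. Ndufaf7, a methyltransferase, ran from 19.97 to 23.26 CPM (median 21.2) in NZO/HlLtJ and from 23.31 to 26.6 CPM (median 24.3) in C57BL/6J. The ranges of the strains nearly touched. Ndufaf7 differed by -0.22 (SE 0.04, edgeR adjusted p = 4.59e-05). Ndufaf1 was lower, at -0.27 (SE 0.05, edgeR adjusted p = 3.82e-05) and Ndufaf2, whose level is uncertain as given above, at -0.33 (SE 0.08, edgeR adjusted p = 0.0016). Atp5sl was higher by 0.10 (SE 0.04, edgeR adjusted p = 0.0463), and this call was lost after any of 15 libraries was left out and in the fit that included the Hox score (0.09, edgeR adjusted p = 0.0769). Both Ndufaf1 (-0.19) and Ndufaf7 (-0.20) were called lower in CAST/EiJ than in C57BL/6J too, where the contrast shares the C57BL/6J libraries.

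Complex II, which feeds electrons from succinate into the chain, differed in both directions. Sdhb, its iron-sulfur protein, was higher than in C57BL/6J in both CAST/EiJ (0.11, SE 0.04, edgeR adjusted p = 0.0139) and NZO/HlLtJ (0.12, SE 0.04, edgeR adjusted p = 0.0265). Without C57BL/6J female control 1 the NZO/HlLtJ difference did not pass (edgeR adjusted p = 0.0505). Sdhc was lower in CAST/EiJ, at -0.11 (SE 0.04, edgeR adjusted p = 0.0146). This call was lost with the 3 libraries nearly free of Hox reads taken away (-0.08, edgeR adjusted p = 0.146) and without C57BL/6J female control 3, male control 1, female HFHS 2 or male HFHS 1 or CAST/EiJ female control 3 or female HFHS 3. Sdha ran from 464.1 to 556.2 CPM (median 529.9) in CAST/EiJ and from 442.9 to 515.6 CPM (median 476.1) in NZO/HlLtJ, with overlap, and was lower in NZO/HlLtJ, at -0.14 (SE 0.03, edgeR adjusted p = 0.000217). The membrane anchors were higher in NZO/HlLtJ than in CAST/EiJ. Sdhc ran from 75.2 to 86.3 CPM (median 81.0) in CAST/EiJ and from 81.9 to 101.6 CPM (median 94.2) in NZO/HlLtJ, and differed by 0.20 (SE 0.04, edgeR adjusted p = 3.11e-05). Sdhd ran from 56.6 to 69.8 CPM (median 63.6) and from 61.9 to 77.2 CPM (median 70.0), and differed by 0.15 (SE 0.04, edgeR adjusted p = 0.0016). The strains overlapped for both.

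In complex III, 5 of 8 genes were called between CAST/EiJ and C57BL/6J, 3 higher and 2 lower, and 0 of 8 between NZO/HlLtJ and C57BL/6J, where 0 had an unadjusted p under 0.05. Of all tested genes, 52.2% and 23.8% were called in these comparisons. The higher genes were the core proteins Uqcrc1 and Uqcrc2 and the Rieske protein Uqcrfs1. Uqcrc1 ran from 220.4 to 281.1 CPM (median 248.6) in CAST/EiJ and from 188.9 to 245.2 CPM (median 218.8) in C57BL/6J, and differed by 0.19 (SE 0.05, edgeR adjusted p = 0.00106). Uqcrc2, which shares 17.6% of its 50-base sequences with Pdzd9, differed by 0.17 (SE 0.03, edgeR adjusted p = 0.000148) and Uqcrfs1 by 0.12 (SE 0.04, edgeR adjusted p = 0.0105). The lower genes were those of 2 small subunits. Uqcrh (chr4:116066965-116075071, minus strand), the hinge protein next to cytochrome c1, ran from 94.5 to 122.9 CPM (median 107.5) in CAST/EiJ and from 127.4 to 152.7 CPM (median 139.8) in C57BL/6J, without overlap, and differed by -0.37 (SE 0.05, edgeR adjusted p = 7.25e-07). Uqcrb, a quinone-binding subunit whose gene shares 25.5% of its 50-base sequences with other genes, differed by -0.20 (SE 0.05, edgeR adjusted p = 0.000334).

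In complex IV the subunit Cox6a1 (ENSMUSG00000041697; chr5:115345642-115348981, minus strand) was higher than in C57BL/6J in both other strains. It ran from 100.1 to 161.8 CPM (median 128.4) in C57BL/6J, from 134.1 to 179.3 CPM (median 149.0) in CAST/EiJ and from 133.0 to 201.7 CPM (median 167.8) in NZO/HlLtJ. The strains overlapped. The difference was 0.40 (SE 0.08, edgeR adjusted p = 0.000164) in NZO/HlLtJ, the largest rise in that comparison, and 0.24 (SE 0.08, edgeR adjusted p = 0.00894) in CAST/EiJ. Cox6a1 shares 9.16% of its 50-base sequences with AC148174.2, a processed pseudogene without counts in the deposited table. The part of this copy was not tested. Cox7a2 was higher in CAST/EiJ by 0.23 (SE 0.05, edgeR adjusted p = 0.000133).

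Lower in CAST/EiJ than in C57BL/6J were Cox6c (-0.28, SE 0.05), Cox7c (-0.26, SE 0.06), Cox7a2l (-0.22, SE 0.04) and Cox4i1 (-0.18, SE 0.05). Cox4i1 ran from 276.9 to 372.6 CPM (median 314.3) in CAST/EiJ and from 320.0 to 387.3 CPM (median 357.1) in C57BL/6J. Cox7a2l shares 13.8% of its 50-base sequences with the processed copy Gm6969, which had 0.00837 CPM in C57BL/6J, 6.68 CPM in CAST/EiJ and 1.37 CPM in NZO/HlLtJ, and the sum of both differed by -0.12. With the copy counted, the call of Cox7a2l was lost (-0.10, edgeR adjusted p = 0.0558). Cox7c, which shares 22.1% of its 50-base sequences with other genes, was also lower in NZO/HlLtJ, at -0.16 (SE 0.06, edgeR adjusted p = 0.0403). That call was lost after any of 18 libraries was left out (edgeR adjusted p from 0.0505 to 0.108), with no filter on low counts, in the fit that included the Hox score, with the 3 libraries nearly free of Hox reads taken away and with total counts as library sizes.

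The muscle isoform Cox7a1 was low in all strains but differed between them. It ran from 1.36 to 2.14 CPM (median 1.65) in C57BL/6J, from 0.659 to 1.40 CPM (median 0.957) in CAST/EiJ and from 0.652 to 1.82 CPM (median 1.25) in NZO/HlLtJ. It was lower than in C57BL/6J, at -0.85 (SE 0.15, edgeR adjusted p = 1.14e-05) in CAST/EiJ and at -0.44 (SE 0.14, edgeR adjusted p = 0.0234) in NZO/HlLtJ. Without NZO/HlLtJ female control 2, female HFHS 1 or male control 3 the latter did not pass (edgeR adjusted p from 0.0522 to 0.0548). Between NZO/HlLtJ and CAST/EiJ it differed by 0.41 (SE 0.15, edgeR adjusted p = 0.0193), and without NZO/HlLtJ female control 1 did not pass (edgeR adjusted p = 0.0515). Cox8b was higher in NZO/HlLtJ than in CAST/EiJ by 1.05 (SE 0.28, edgeR adjusted p = 0.00204), at 0.995 ± 0.431 against 0.476 ± 0.184 CPM (SD, n = 12). A list of 10 muscle genes summed to between 1.56 and 4.003 CPM in C57BL/6J, 2.87 and 12.8 CPM in CAST/EiJ and 2.84 and 5.76 CPM in NZO/HlLtJ, and the highest library had 1.12 CPM of the muscle gene Ckm. Of 4 listed brown fat genes, 3 are in the table, and they went different ways. Ucp1, the defining gene of brown fat, was at most 0.702 CPM and Plin1 at most 0.1965 CPM. Cidea exceeded 1 CPM in 36 of 36 libraries, with a median of 2.69 and a maximum of 7.38 CPM. The part of such tissue in these genes was not tested.

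Beside the nuclear subunits, other lists of the pathway were read in the same way, against 52.2% of all genes called between CAST/EiJ and C57BL/6J and 23.8% between NZO/HlLtJ and C57BL/6J. Of 13 mitochondrially encoded chain genes, 7 (53.8%) were called between CAST/EiJ and C57BL/6J (4 higher, 3 lower), 5 (38.5%) between NZO/HlLtJ and C57BL/6J (0 higher, 5 lower) and 0 for diet in any strain, with median diet values of -0.02, -0.04 and -0.06 in C57BL/6J, CAST/EiJ and NZO/HlLtJ. The largest differences of CAST/EiJ to C57BL/6J were those of mt-Co2 (-8.07; 9.75 against 2554 CPM), mt-Nd3 (-1.03) and mt-Atp6 (0.62). For the genes of these other lists, sequence shared with other genes was not searched. The part of mapping and of copies in their differences, such as those of mt-Co2 and Cycs, was not tested. Of 21 carriers and supercomplex factors, 15 (71.4%) were called between CAST/EiJ and C57BL/6J (6 higher, 9 lower). Cycs, the cytochrome c that carries electrons from complex III to complex IV, had 184.2 CPM in CAST/EiJ and 83.5 CPM in C57BL/6J (1.14, SE 0.05, edgeR adjusted p = 7.17e-18). Of 39 tested assembly factors outside the name pattern, 25 (64.1%) were called in that comparison (9 higher, 16 lower), with Cmc1 at -0.70, Uqcc3 at 0.68 and Cox16 at -0.64. Of 15 regulators of mitochondrial biogenesis, 7 (46.7%) were called (4 higher, 3 lower), among them Tfam, the packaging and transcription factor of mitochondrial DNA, at -0.59 (SE 0.03) and the transcription factor Tfb2m at -0.55 (SE 0.05).

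Against C57BL/6J, NZO/HlLtJ differed in 9 of the 39 assembly factors (23.1%; 5 higher, 4 lower), close to the share of all genes, led by Lyrm7, a chaperone of the Rieske protein, at 0.98 (SE 0.05), Cox18 at 0.66 (SE 0.07) and Tmem70, which helps to build the ring of ATP synthase, at -0.43 (SE 0.04). In 0 of 15 biogenesis regulators was a difference called there. Of 14 genes of the tricarboxylic acid cycle, 4 (28.6%) were called between NZO/HlLtJ and C57BL/6J (1 higher, 3 lower) and 8 (57.1%) between CAST/EiJ and C57BL/6J (4 higher, 4 lower), with Idh2 at 0.21 and 0.55. Of 77 tested genes of the mitochondrial ribosome, 20 (26%) and 41 (53.2%) were called, again close to the shares of all genes. EdgeR called 0 genes of these 6 lists for diet in any strain, with between 0 and 6 genes of a list at an unadjusted p under 0.05, and other tools were not run on the lists.

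Between libraries of the same group, the nuclear genes moved as 1 block. For each library the score of a complex was taken minus the mean of its group of 3, which leaves out strain, diet and sex. Over the 36 libraries the deviations of complex I went with those of all members with r = 0.99 and Spearman rho = 0.99 (r = 0.99 without the 2 farthest libraries). For complex IV r was 0.97 and rho 0.97, for complex III 0.98 and 0.98, for ATP synthase 0.98 and 0.98, and for complex II 0.90 and 0.87. The assembly genes went less closely, with r = 0.78 and rho = 0.76. The scores share the libraries' scaling, and each complex is part of the sum it is set against, so these values are descriptions. Genes outside the members also followed: r was 0.95 for the mitochondrial ribosome, 0.93 for the carriers, 0.88 for the other assembly factors and 0.84 for the tricarboxylic acid cycle.

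**Figure D5:**
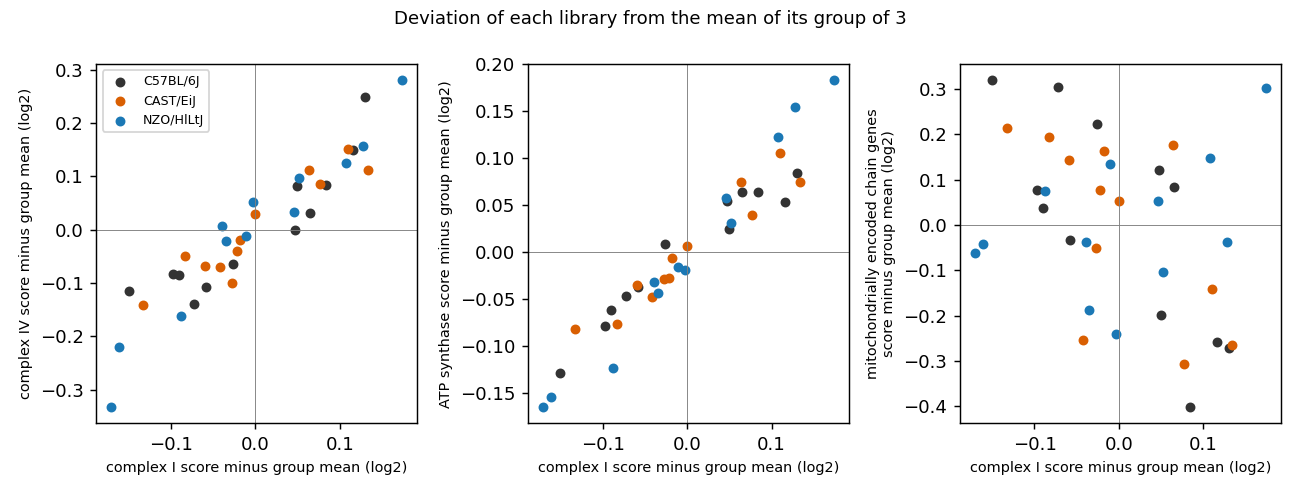
Deviation of each of 36 libraries from the mean of its group of 3, with the complex I score on each x axis and the scores of complex IV, ATP synthase and the mitochondrially encoded chain genes on the y axes (log2), coloured by strain. The first and second panels form a line through 0, and the third shows wide scatter with no such line.

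The mitochondrially encoded genes of the same chain did not follow. Their deviations went with those of the nuclear genes with r = -0.28 and rho = -0.30, and with r = -0.47 without the 2 farthest libraries, and their SD within groups was 0.23 against 0.11 for the nuclear genes. Regulators of mitochondrial biogenesis had r = 0.15. Of the 90 members, 80 have transcripts under 1942 bp, the bound of the shortest quartile of the other protein-coding genes. Deviations of that shortest quartile went with those of the members with r = 0.62 and rho = 0.73 (r = 0.78 without the 2 farthest libraries). Those of the next quartiles gave r = 0.18 and -0.44 (0.39 and -0.28 without these), and those of the longest r = -0.83 with or without them. Total counts gave r = -0.02 (0.18 without the 2 farthest libraries) and myelin genes r = 0.58 and rho = 0.42 (r = 0.41 without these). Microglia genes gave r = 0.52 (0.57) and cerebellar neuron genes r = -0.40 (-0.32). The part of total counts and of these marker lists was not tested. In C57BL/6J the median diet differences of these quartiles were 0.03, 0.02, 0.002 and -0.03 from short to long, beside 0.04 for the members. In CAST/EiJ they were 0.02, 0.005, 0.002 and -0.007, beside 0.07. The part of length in the diet values was not tested.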

How the data were processed

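PolyA RNA of 36 libraries was sequenced as 100 bp read pairs with a target of 30 M pairs, from 100 ng RNA, per the labels' protocols. The deposited table holds expected counts per gene and library, made by the authors on genome build GRCm38, per the submitters' processing notes; no source used here gives the aligner, the counting tool, the annotation or the use of strand. A second deposited table holds log2 variance-stabilised values made by the authors, for which those notes name DESeq2, and it was used for 1 alternative.

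Expected counts were rounded and filtered with filterByExpr (minimum count 10, minimum total 15), which kept 20108 of 24344 genes. Library sizes were scaled by TMM (0.959 to 1.04), and 12 group means were fitted with edgeR 4.0.16 (quasi-likelihood, robust dispersions, 24 residual degrees of freedom) in R 4.3.3. P-values were adjusted by Benjamini-Hochberg over all tested genes, at 0.05. The fit was tested on simulated data first. Robust estimation was chosen after seeing the data.

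Named genes were the 8 largest rises and falls among called members of each contrast, or the 3 smallest p-values where fewer than 3 were called, tissue isoforms, the extremes of level in each complex, and up to 3 called genes of each other list. Other called members are named after their values were seen. The members and lists were chosen with earlier results of these data known. Gene models, sequence sharing (50-base sequences found in transcripts of other genes) and copies come from gencode vM21 on GRCm38, and promoters from RefSeq GRCm38.p6. Replicate numbers follow the order of deposit. Alternatives were DESeq2 1.42.0, limma 3.58.1 on the deposited log2 values, no filter, total-count scaling, a Hox covariate, 3 libraries with few Hox reads taken away, strain-only groups, members sharing at most 10% of their sequence, and each library left out.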

Additional observations from a re-analysis of the deposited data

Results flagged for a closer look

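In 10 of 234 pairs of a value and a group of 6 libraries (1 strain on 1 diet), the highest or lowest library lay far from the others by Dixon's ratio at the 95% level. Chance alone marks about 1 in 20 groups. The score of complex II in CAST/EiJ on HFHS was 7.1 in male HFHS 3 and 6.95 to 6.99 in the others. The other 9 were log2 CPM of single genes.

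Assembly genes gave 5 of them. Ndufaf6 was at 2.37 in CAST/EiJ male control 3, a library with few Hox reads, where the others had 2.81 to 2.98. Ndufaf1 was at 4 in CAST/EiJ male control 1, another such library (others 4.22 to 4.34), and at 4.62 in C57BL/6J female control 3 (others 4.48 to 4.52). The same C57BL/6J library had 4.67 for Ndufaf7, against 4.55 to 4.59. Atp5sl was at 4.37 in CAST/EiJ female HFHS 1, against 4.47 to 4.51.

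Subunits gave the other 4. Ndufa12 was at 6.27 in C57BL/6J female HFHS 2 (others 5.97 to 6.05), and Ndufa7 at 4.68 in CAST/EiJ female control 3 (others 4.87 to 4.94). Cox7c was at 6.58 in C57BL/6J male HFHS 3, below 6.77 to 6.88 in the others, and at 6.74 in CAST/EiJ male HFHS 3, above 6.52 to 6.58.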

How the results depend on the processing

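No paired analysis was possible because the replicate numbers follow the order of deposit and pair no libraries. For diet, interaction and sex, 0 members were called under the alternatives that keep all libraries or leave out the 3 with few Hox reads, except in CAST/EiJ, where DESeq2 called 2 (Ndufaf1 and Ndufaf2). With 1 library left out, counts ran from 0 to 2 in CAST/EiJ (2 without male control 2, 1 without NZO/HlLtJ male control 3) and from 0 to 1 in NZO/HlLtJ (1, Ndufs1, without male control 2). Strain counts with 1 library left out ran from 9 to 17 for NZO/HlLtJ minus C57BL/6J, 39 to 46 for CAST/EiJ minus C57BL/6J and 34 to 43 for NZO/HlLtJ minus CAST/EiJ. The shares of all genes in these fits are not given here, so these ranges do not set the members apart from other genes. Of the called values, 3 changed sign when copies elsewhere were counted with the gene, an alternative chosen after seeing the data: Atp5g2 in NZO/HlLtJ minus CAST/EiJ (0.028, with Gm10175 and Gm10231), and Ndufab1 in CAST/EiJ minus C57BL/6J (-0.027) and in NZO/HlLtJ minus CAST/EiJ (0.08). The Hox covariate moved the CAST/EiJ diet medians of the assembly genes to 0.03 and of complex II to -0.006. Hox sums overlapped little between the CAST/EiJ diets, so that fit cannot separate diet from Hox level. Calls lost in NZO/HlLtJ minus C57BL/6J were Atp5sl, Cox7c, Cox7a1, Ndufa12, Ndufc2 and Sdhb, with edgeR adjusted p from 0.014 to 0.0463 when all libraries were used. Calls lost in CAST/EiJ minus C57BL/6J were Atp5a1, Atp5d, Atp5h, Atp5j, Atp5l, Cox7a2l, Ndufa7, Ndufa9 and Sdhc, and in NZO/HlLtJ minus CAST/EiJ Atp5h, Cox7a1, Ndufa4l2, Ndufa6, Ndufb5 and Ndufs3, each under at least 1 alternative or left-out library; the cause was not tested. Of the 69 members sharing at most 10% of their sequence, 10, 32 and 26 were called in the 3 strain comparisons. In the same order, 23.8%, 52.2% and 49.8% of all genes were called.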

Other observations

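Cox5b and Ndufb4 have copies elsewhere in the genome that carried many reads. Cox5b, the zinc-binding subunit of complex IV, had 104.4 CPM in C57BL/6J, 113.6 CPM in CAST/EiJ and 105.9 CPM in NZO/HlLtJ. Of the 50-base sequences of Cox5b, 11.9% are found in Gm11273, a gene on chromosome 13. Gm11273 had 27.1 ± 5.22, 0.108 ± 0.096 and 15.1 ± 2.54 CPM in these strains (SD, n = 12). The log2 difference of Gm11273 between CAST/EiJ and C57BL/6J was -7.89 (edgeR adjusted p = 1.24e-21), and that of the sum of Cox5b and Gm11273 -0.21. Ndufb4, an accessory subunit of complex I, had less than its copy Ndufb4c in every strain: 17.3 ± 1.71 against 28.45 ± 2.15 CPM in C57BL/6J, 16.02 ± 1.296 against 25.4 ± 2.77 CPM in CAST/EiJ and 15.8 ± 1.55 against 27.9 ± 2.24 CPM in NZO/HlLtJ. The assignment of reads between such genes and copies was not tested.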
